A study of Caenorhabditis elegans with 59 samples.

Results

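The cytosolic chaperonin CCT, also called TRiC, was followed through the mRNA of its subunit genes cct-1, cct-2, cct-3, cct-4, cct-5, cct-6, cct-7 and cct-8 in adult Caenorhabditis elegans depleted of the transcription factor HSF-1. The genes were chosen by name and by WormBase identifier, and they are 8 of the 15698 genes listed in at least 1 of 3 expression tables. All 8 were listed in every table and passed the filter on low values. CCT is a closed double ring in which each ring holds 1 copy of every subunit, so that the complex needs the products of all 8 genes. It uses ATP to fold proteins in its cavity, above all actins and tubulins, which the prefoldin complex delivers as unfolded chains. HSF-1 binds heat shock elements at chaperone genes and activates them under stress and, for some chaperones, in unstressed animals. The comparisons below ask whether the subunits of this complex moved together after loss of HSF-1, or whether only some of them did.

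RNA was taken from whole animals, about 120 worms per condition, and sequenced as poly(A)-selected directional libraries. The groups with the tag were JTL667, with glp-1(e2141), hsf-1::aid::gfp and the TIR1 transgene, JTL670, with fem-3(q20), unc-119(ed3) and the same tag and transgene, and JTL611, with the tag, the transgene and unc-119(ed3) in an otherwise wild-type background. CA1200 was the control, with the TIR1 transgene and unc-119(ed3) and no tag. In all 4 strains TIR1, the plant protein that brings a degron-tagged protein to degradation when auxin is present, was driven by the eft-3 promoter in the soma, so that germline HSF-1 was not the target. Animals were moved as young adults to auxin plates or to plates with ethanol, called mock below. JTL667 and JTL670 were grown at 25 °C for 48 h and treated for 8, 24 or 48 h. JTL611 and CA1200 were grown at 20 °C for 51 h and treated for 8 or 24 h. Each group had 3 libraries, except JTL667 on auxin for 48 h, which had 2, and p-values measure the spread between these libraries, since the labels do not say that they came from separate cultures (the study's supplement calls the CA1200 libraries biological replicates). The glp-1(e2141) mutant makes almost no germ cells at the growth temperature used and fem-3(q20) makes sperm and no oocytes, and these strains are called glp-1 and fem-3 below.

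The marker genes bear on these backgrounds. The summed level of 10 germ cell genes lay between 36.9 and 55.0 CPM (reads on a gene scaled to the library's total) in glp-1 on auxin and between 52.3 and 71.8 CPM in glp-1 mock, and him-3, a meiotic chromosome axis gene, had 0 reads in every glp-1 library. In fem-3 the same sum was 1747 to 2519 CPM on auxin and 1975 to 2953 CPM in mock, and 11 sperm genes summed to 3123 to 4950 CPM on auxin and 2670 to 4315 CPM in mock, against at most 27.7 CPM in glp-1. The sterile strains had 9131588 to 19964797 reads per library, and JTL611 and CA1200 had 13100691 to 22230585 in the 8 h table and 13398410 to 23867943 in the 24 h table. A CCT subunit had at least 284 reads in any library, far above the level of 3 reads, which is 0.153 to 0.366 CPM in the sterile strains. One library stood apart: glp-1 mock replicate 1 at 24 h had 26.7% of its reads on ribosomal RNA, where the median of the table was 2.99%, and 4340 genes without reads, where the median was 551. In 18 of the 59 samples, all of replicates 2 and 3 of fem-3 and all of replicate 3 of glp-1, the title and the agent tag name opposite treatments. Groups follow the titles here, as the column names of the tables do, and the counts of subunits called in the sterile strains are also given by the tag and from the libraries whose labels agree, a set with 1 library per group in fem-3, whose spread is then taken from glp-1.

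The 8 genes do not form a cluster in the genome (WBcel235). Their products are the alpha to theta subunits in the order of their numbers, and the yeast ring has one side of subunits 1, 2, 4 and 5 that binds ATP tightly and another side of subunits 3, 6, 7 and 8 that binds it weakly. On the first side, cct-1 (WBGene00000377) lies at chrII:8185443-8187601 on the plus strand, cct-2 (WBGene00000378) at chrII:8927741-8929815 on the plus strand, cct-4 (WBGene00000379) at chrII:8283667-8285711 on the plus strand and cct-5 (WBGene00000380) at chrIII:4499188-4508114 on the minus strand. On the second side, cct-3 (WBGene00018782) lies at chrII:2233540-2243539 on the plus strand, cct-6 (WBGene00000381) at chrIII:5853530-5855687 on the minus strand, cct-7 (WBGene00020391) at chrV:1872246-1875505 on the plus strand and cct-8 (WBGene00021934) at chrIV:1087108-1093920 on the minus strand. All are protein coding, and values are reads over the exons of the whole gene. Exons of cct-1 share 117 bases with T05C12.8 and those of cct-7 share 28 bases with zig-11, both on the opposite strand, and the use of strand in counting is not given in the sources used here. No other subunit shares exon bases with another gene.

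Per kilobase of exon, the subunit mRNAs were not equal in level, and their order differed between the tables. The tables were normalized separately, so levels are not compared between them. The exon lengths used were 2602 bp for cct-3, 2358 for cct-8 and 2259 for cct-7, against 1854 to 1931 for the other 5. In the sterile strains the order per kb therefore differs from that of the CPM, and the low place of cct-3 and cct-8 rests in part on their length. In the sterile strains cct-5 was the highest in 32 of 35 libraries, with a mean of 69.7 CPM per kb, and was followed by cct-4 at 52.1, cct-1 at 48.4 and cct-7 at 47.6 CPM per kb. The lowest means were those of cct-8, at 34.1 CPM per kb, and cct-3, at 33.6 CPM per kb, which was the lowest of all in 16 libraries, while cct-8 was the lowest in 15. Neighbours in this order changed places between libraries, cct-4 between the 2nd lowest and the highest rank, so that the order of the middle subunits did not exceed their spread. In JTL611 and CA1200 the order was steady at the low end: cct-3 was the lowest, cct-8 the 2nd lowest and cct-7 the 3rd lowest in all 12 libraries at 8 h and in all 12 at 24 h. Their means at 8 h were 70.6, 113 and 150 CPM per kb, against 261 to 340 CPM per kb for the other 5. The highest subunit exceeded the lowest 4.61- to 5.38-fold in the group means of JTL611 and CA1200 and 1.91- to 3.16-fold in those of the sterile strains.

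**Figure D1:**
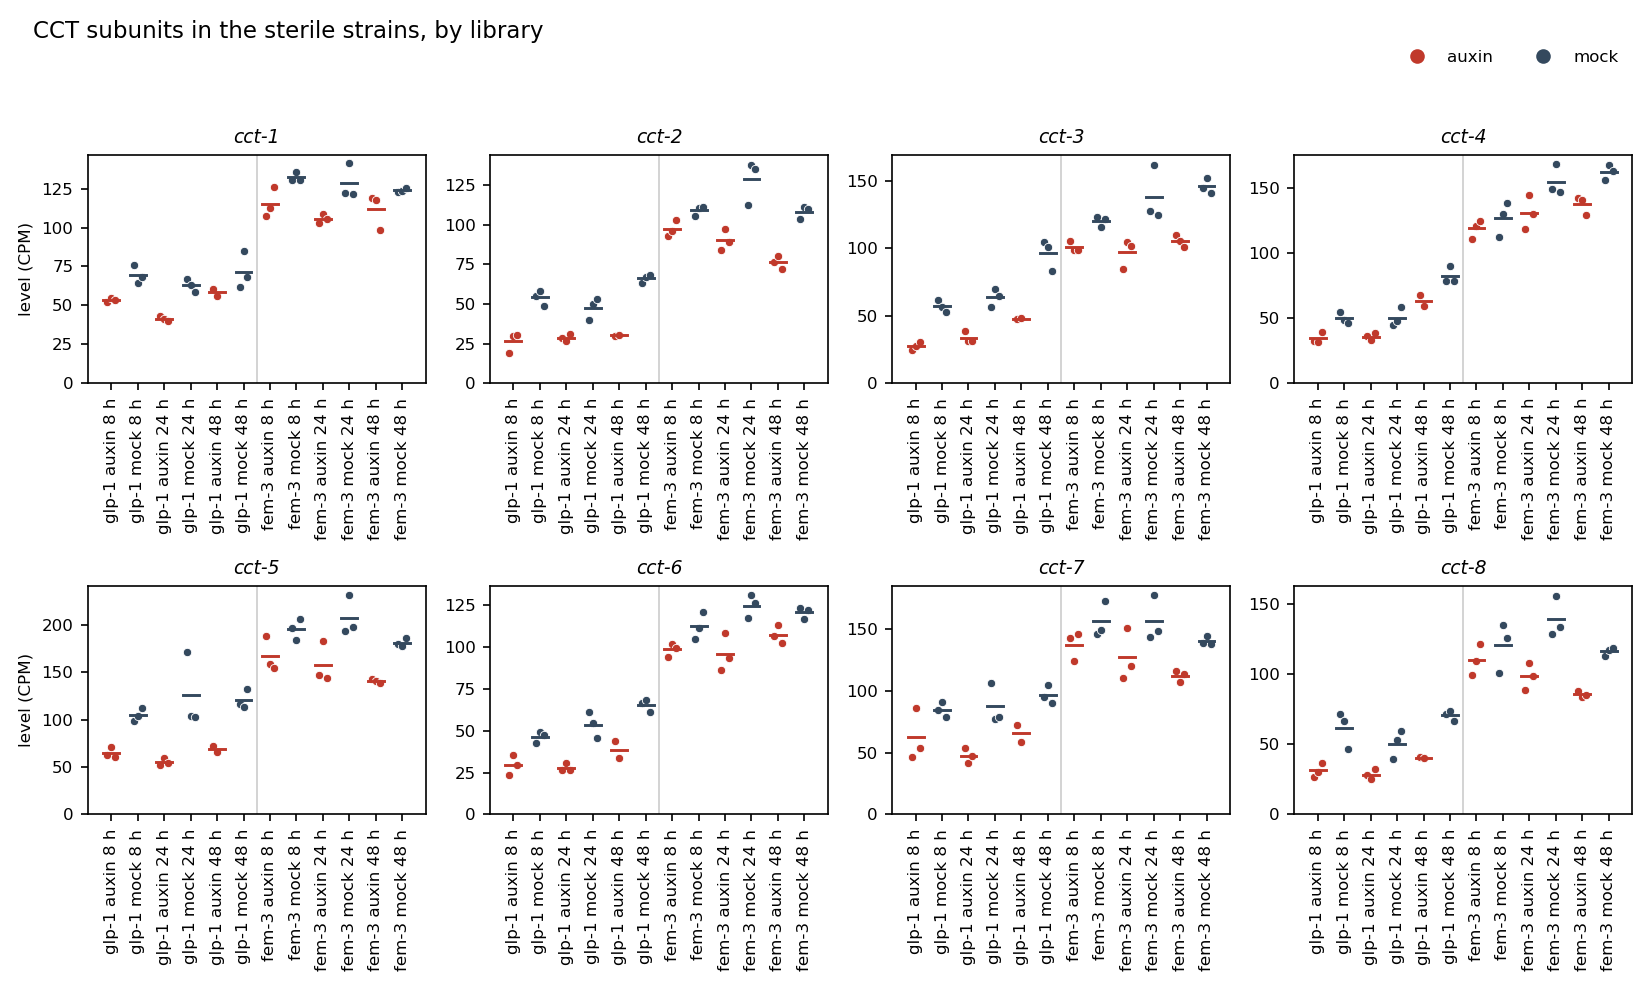
CPM of each CCT subunit (1 panel each) in the libraries of glp-1 and fem-3 by hour, with auxin left of mock. Points are libraries and bars are group means. In glp-1 at 24 h the sums of the 8 subunits averaged 299 CPM on auxin and 542 CPM in mock, and in fem-3 at that hour 904 CPM on auxin and 1179 CPM in mock.

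The mRNA of the tagged gene is given first. In glp-1 at 8 h hsf-1 had 15.5, 24.2 and 29.3 CPM on auxin, against 20.3, 25.6 and 24.1 CPM in mock, with overlapping groups (log2 fold change −0.07, SE 0.21). In JTL611 on auxin at 8 h it had 31.1, 48.9 and 43.2 CPM, against 64.1, 60.1 and 63.9 CPM in CA1200 on auxin, without overlap and without a call (−0.64, SE 0.20, adjusted p = 0.983 in limma). It overlapped with its own mock at that hour, at 50.6, 53.98 and 39.9 CPM, and at 24 h it had 64.6, 69.8 and 60.3 CPM in JTL611 on auxin, against 57.1, 72.6 and 87.0 CPM in CA1200 on auxin, again with overlap. Auxin removes the protein, so hsf-1 mRNA does not check the depletion.

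In glp-1, all 8 subunits had a lower mean on auxin than in mock at each of the 3 hours. The 8 subunits summed to 330 ± 39.7 CPM on auxin and 528 ± 23.8 CPM in mock at 8 h, to 299 ± 8.65 CPM on auxin and 542 ± 38.2 CPM in mock at 24 h (SD, n = 3 each), and to 414 ± 30.3 CPM on auxin (n = 2) and 670 ± 29.8 CPM in mock (n = 3) at 48 h. At 8 h, 6 of 8 passed the test as lower (limma across all genes, with an adjusted p below 0.05 and at least 2 CPM on average), where 0.224% of all genes tested did. At 24 h 8 of 8 passed, beside 0.301% of all genes, and at 48 h 5 of 8, beside 1.94%. Precision weights (voom in limma) called 5, 7 and 6, without cct-4 at 8 h (adjusted p = 0.0740) and 24 h (0.0596) and with cct-7 at 48 h (0.0464). The median log2 fold change over the 8 was −0.68, −0.84 and −0.78 at 8, 24 and 48 h, where the median over all genes was 0.00, 0.07 and 0.00. The groups did not overlap for 7 of 8 subunits at 8 h, for 8 at 24 h and for 8 at 48 h, where 5.35%, 3.9% and 12.7% of all genes were lower without overlap. In RNA from whole animals, fewer cells of a type and less RNA per cell cannot be told apart. The summed level of the 10 germ cell genes, low in this strain, was 36.9 to 42.2 CPM on auxin and 61.3 to 62.7 CPM in mock at 24 h and 49.9 to 55.0 CPM on auxin and 60.9 to 71.8 CPM in mock at 48 h, both without overlap, and overlapped at 8 h (44.5 to 54.1 CPM on auxin, 52.3 to 55.6 CPM in mock). The 11 sperm genes were also lower at 48 h, at 14.6 to 19.6 CPM on auxin and 25.6 to 27.7 CPM in mock, and the 9 oocyte and embryo genes at 24 h, at 7.35 to 7.98 CPM on auxin and 9.87 to 10.8 CPM in mock, and at 48 h, at 6.38 to 6.41 CPM on auxin and 6.69 to 13.6 CPM in mock. Of a list of somatic marker genes, 9 summed to 59815.5 to 64113.5 CPM on auxin in glp-1 at 48 h. In mock at that hour they summed to 64675.3 to 94784.3 CPM, again without overlap. At 8 and 24 h the somatic sums of auxin and mock overlapped. The part of these marker genes in the changes of the subunits was not tested.

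The subunits cct-2, cct-3 and cct-8 fell most at 8 h. The beta subunit gene cct-2 had 18.9, 29.9 and 30.3 CPM on auxin, against 55.3, 58.5 and 48.9 CPM in mock. Every auxin library was far below every mock library, and the fitted level was 47.8% of mock (log2 fold change −1.07, SE 0.13, adjusted p = 1.11e-05 in limma). The gamma subunit gene cct-3 had 24.5, 27.9 and 30.8 CPM on auxin, against 62.0, 56.4 and 52.8 CPM in mock. It was at 48.6% of mock, again with a wide gap between the groups (−1.04, SE 0.11, adjusted p = 1.65e-06 in limma). The theta subunit gene cct-8, whose overexpression raises CCT assembly in human stem cells, had 26.9, 30.0 and 36.7 CPM on auxin, against 71.6, 66.7 and 46.4 CPM in mock. It was at 51.3% of mock (−0.96, SE 0.15, adjusted p = 0.000592 in limma). The study singled out cct-3, cct-7 and cct-8 by an HSF-1 ChIP-seq peak at the promoter together with a fall in these libraries. Their direction here is thus not independent evidence.

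Smaller changes were measured for the remaining subunits at 8 h. The epsilon subunit gene cct-5 had 63.1, 70.9 and 60.7 CPM on auxin, against 98.97, 104 and 112 CPM in mock (−0.69, SE 0.13, adjusted p = 0.00866 in limma). The zeta subunit gene cct-6 had 23.3, 35.6 and 29.3 CPM on auxin, against 42.3, 49.0 and 47.6 CPM in mock (−0.67, SE 0.13, adjusted p = 0.00598). The delta subunit gene cct-4 had 32.2, 31.4 and 39.7 CPM on auxin, against 54.8, 48.5 and 46.2 CPM in mock (−0.54, SE 0.11, adjusted p = 0.0164). In these 3 genes no auxin library reached a mock library. Their calls were the ones that leaving out 1 library could end: cct-4 was called in neither fit without auxin replicate 1 or 2 (adjusted p = 0.0936 and 0.0982) nor in those without mock replicate 1 or 2 (0.139 and 0.0539), cct-5 not without mock replicate 3 (0.0605) and cct-6 not without auxin replicate 1 (0.0748). The alpha subunit gene cct-1 had 52.2, 54.8 and 53.7 CPM on auxin, against 75.6, 64.2 and 68.3 CPM in mock. Its groups did not overlap, but it did not pass (−0.37, 95% interval −0.57 to −0.16, adjusted p = 0.116). The eta subunit gene cct-7 had 46.7, 86.2 and 54.2 CPM on auxin, against 84.8, 91.2 and 78.5 CPM in mock. One auxin library, replicate 2, lay within the mock range, and cct-7 did not pass with it (−0.49, 95% interval −0.82 to −0.16, adjusted p = 0.294) and passed without it (−0.75, adjusted p = 0.00857).

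At 24 h cct-5 fell most. It had 52.0, 59.7 and 53.9 CPM on auxin, against 171, 104 and 103 CPM in mock (−1.15, SE 0.13, adjusted p = 7.13e-06 in limma). The mock value of 171 CPM came from the library rich in ribosomal RNA, and without it cct-5, like all subunits but cct-7, was still called. For cct-6 the auxin libraries had 26.8, 30.5 and 26.7 CPM, against 61.0, 54.3 and 45.5 CPM in mock (−0.93, SE 0.13, adjusted p = 5.19e-05). The values of cct-3 were 38.4, 31.5 and 31.3 CPM on auxin, against 56.6, 69.7 and 64.5 CPM in mock (−0.91, SE 0.11, adjusted p = 1.84e-05). Both genes had groups far apart. In cct-7 the auxin libraries had 54.2, 41.9 and 47.1 CPM, against 106, 77.6 and 79.0 CPM in mock (−0.87, SE 0.16, adjusted p = 0.00395), and its call was lost without mock replicate 1 (−0.72, adjusted p = 0.0558). In cct-8 they had 27.7, 25.0 and 32.0 CPM, against 39.2, 52.9 and 59.1 CPM in mock (−0.82, SE 0.15, adjusted p = 0.00383). The changes of cct-2 (−0.71, adjusted p = 0.00334) and cct-1 (−0.60, adjusted p = 0.000802) were smaller. In cct-1 the auxin libraries had 43.0, 41.1 and 39.8 CPM, against 67.1, 62.9 and 58.7 CPM in mock, and cct-1, which did not pass at 8 h, was at 65.8% of mock at 24 h. The smallest change was that of cct-4, with 36.3, 33.0 and 38.4 CPM on auxin, against 45.1, 47.5 and 58.3 CPM in mock (−0.48, adjusted p = 0.0381). Its call was lost without auxin replicate 1 or 2 (adjusted p = 0.104 and 0.173) and without mock replicate 3 (0.0544).

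At 48 h the order was again led by cct-2 and cct-3. In cct-2 the auxin libraries had 30.0 and 30.4 CPM, against 63.0, 67.2 and 68.5 CPM in mock (−1.13, SE 0.15, adjusted p = 9.39e-06 in limma). In cct-3 they had 47.6 and 48.4 CPM, against 105, 101 and 83.1 CPM in mock (−0.997, SE 0.13, adjusted p = 9.25e-06). They were at 45.7% and 50.1% of mock, and the auxin libraries of each lay close together. The changes of cct-5, cct-8 and cct-6 were −0.80, −0.80 and −0.76, with adjusted p = 0.00128, 0.00428 and 0.00107 in limma. The call of cct-6 was lost without auxin replicate 3 (adjusted p = 0.0655). The other 3 subunits did not pass in limma without weights: cct-7 at −0.56 (95% interval −0.93 to −0.19, adjusted p = 0.0726), cct-4 at −0.38 (−0.64 to −0.12, adjusted p = 0.0802) and cct-1 at −0.28 (−0.51 to −0.05, adjusted p = 0.172). With 60.7 and 56.2 CPM on auxin, against 61.7, 84.6 and 68.1 CPM in mock, cct-1 was closest to its mock level, at 82.5%. Its change lay between −0.38, without mock replicate 1, and −0.15, without mock replicate 2, and was the smallest of the 8 in each of the 5 fits without 1 library.

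**Figure D2:**
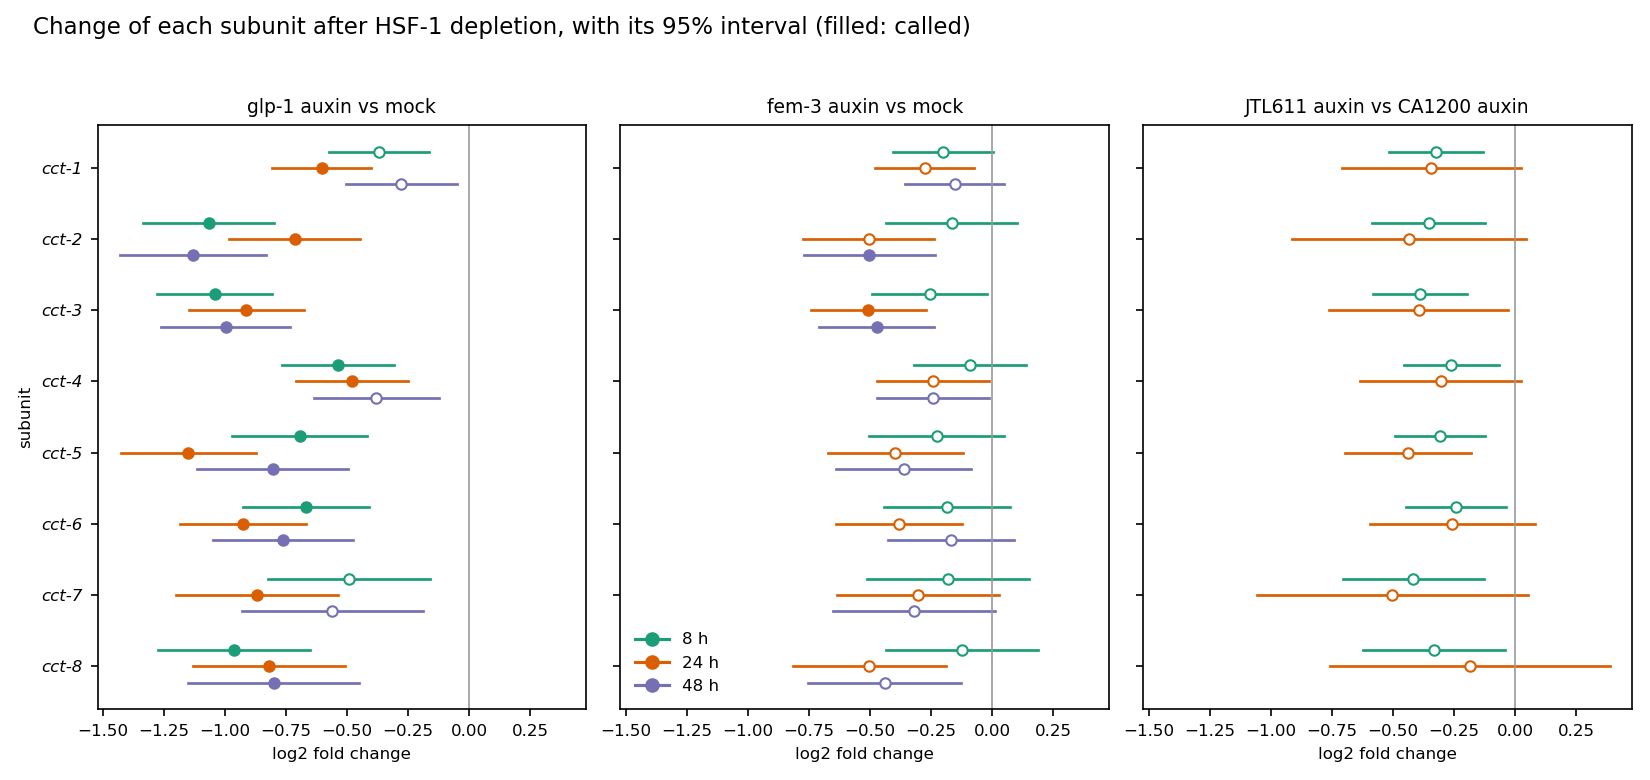
Log2 fold change of each subunit with its 95% interval in the HSF-1 depletion comparisons. Filled points passed the test (adjusted p below 0.05, at least 2 CPM on average). All 8 points lie left of 0 in glp-1 and fem-3 at 8, 24 and 48 h and in JTL611 against CA1200 at 8 and 24 h, and filled points number 6, 8 and 5 in glp-1 and 0, 1 and 2 in fem-3.

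The labels bear on these calls. Among the glp-1 libraries whose title and tag agree, 2 per group except 1 on auxin at 48 h, all 8 changes were again below 0 at each hour, between −1.28 and −0.38 at 8 h, −1.26 and −0.42 at 24 h, and −1.12 and −0.25 at 48 h, and none was called (lowest adjusted p = 0.152, 0.355 and 0.0875 in limma). With groups taken from the tag, the changes lay between −0.74 and −0.10 at 8 h, between −0.53 and −0.08 at 24 h and between −0.35 and 0.03 at 48 h, and none was called. The count also rests on the pooled spread of the 35 libraries: with only the groups compared in the fit, 0, 0 and 1 subunits were called at 8, 24 and 48 h.

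In fem-3, which has the same tag and transgene and a germline that makes sperm, the 8 subunits showed smaller log2 changes than in glp-1. This does not hold for the fall in summed CPM at 24 h. The study proposes that unchanged germline mRNA masks part of the fold change in fem-3, and that was not tested here. They summed to 946 ± 26.5 CPM on auxin and 1073 ± 53.8 CPM in mock at 8 h, to 904 ± 93.1 CPM on auxin and 1179 ± 112 CPM in mock at 24 h, and to 877 ± 33.1 CPM on auxin and 1099 ± 14.6 CPM in mock at 48 h (SD, n = 3 each). All 8 log2 fold changes were below 0 at each hour, with medians of −0.18, −0.39 and −0.34, where the medians over all genes were 0.05, 0.02 and 0.02. At 8 h 0 of 8 subunits passed in limma, where 0.203% of all genes were called lower. At an unadjusted p under 0.05, 1 of 8 did (575 of all 14269 genes), and voom also gave 0. At 24 h 1 of 8 passed, beside 0.126% of all genes, and at 48 h 2 of 8, beside 1.33%. Groups were lower without overlap for 5, 7 and 8 of the 8 at 8, 24 and 48 h, where 5.21%, 5.49% and 12.6% of all genes were. At 48 h the germ cell genes summed to 1747 to 1919 CPM on auxin and 2129 to 2171 CPM in mock, while the sperm genes were higher on auxin (3526 to 3803 CPM, against 3161 to 3512 CPM in mock), as were the oocyte and embryo genes (239 to 303 CPM, against 210.3 to 214.8 CPM in mock), and their part was not tested.

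The gene that passed at both later hours was cct-3. At 24 h it had 84.4, 105 and 102 CPM on auxin, against 128, 162 and 125 CPM in mock (−0.51, SE 0.11, adjusted p = 0.0495 in limma). At 48 h it had 110, 106 and 101 CPM on auxin, against 145, 153 and 141 CPM in mock (−0.47, SE 0.11, adjusted p = 0.0202). It was at 70.4% and 72.1% of mock, with no overlap at either hour. At 48 h cct-2 had 76.8, 80.5 and 72.1 CPM on auxin, against 104, 111 and 110 CPM in mock (−0.50, SE 0.13, adjusted p = 0.0327). Its 24 h values were 84.4, 97.6 and 89.0 CPM on auxin, against 113, 138 and 135 CPM in mock (−0.51, adjusted p = 0.105). With the replicate number as a block, which the libraries at 24 h met the criterion for, 2 subunits were called at 24 h, cct-2 with an adjusted p of 0.0440 and cct-3. These calls are at the edge of the threshold: the call of cct-3 at 24 h was lost without any 1 of the 6 libraries (adjusted p = 0.0628 to 0.293), that of cct-2 at 48 h likewise (0.0633 to 0.146), and that of cct-3 at 48 h in 5 of 6 cases (0.0506 to 0.103), the exception being auxin replicate 1.

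The remaining subunits of fem-3 did not pass in the fit of all groups. With only the groups compared in the fit, cct-8, cct-5, cct-7 and cct-4 also passed at 48 h (adjusted p = 0.000859, 0.00226, 0.00763 and 0.0406 in limma). At 24 h cct-2 and cct-8 passed in that fit (0.0297 and 0.0310) and with voom (0.00666 and 0.0299). The values below are from the fit of all groups. At 48 h cct-8 had 87.9, 83.6 and 85.0 CPM on auxin, against 113, 117 and 118 CPM in mock (−0.44, 95% interval −0.75 to −0.13, adjusted p = 0.156). At that hour cct-5 had 143, 141 and 139 CPM on auxin, against 180, 178 and 186 CPM in mock (−0.36, interval −0.64 to −0.09, adjusted p = 0.209). In both, each auxin library was below each mock library by more than the groups' own spread. The smallest changes at 48 h were those of cct-1, with 119.2, 118 and 98.2 CPM on auxin, against 123, 123 and 125 CPM in mock (−0.15, interval −0.36 to 0.05), and of cct-6, with 107, 113 and 102 CPM, against 123, 117 and 122 CPM (−0.17, interval −0.43 to 0.09). With groups from the agent tag, all 8 changes in fem-3 were above 0 at each hour, at most 0.19, 0.23 and 0.21 at 8, 24 and 48 h, and none was called. In replicate 1 alone, whose labels agree, all 8 were below 0, between −0.28 and −0.02 at 8 h, −0.60 and −0.25 at 24 h, and −0.43 and −0.04 at 48 h, with none called.

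Whether the log2 change differed between the sterile strains was tested as the change in glp-1 minus the change in fem-3. The germline mRNA of fem-3 is part of its levels, and its part in this difference was not tested. All 8 differences were below 0 at each hour, and none passed in limma. The lowest adjusted p-values were 0.160 at 8 h, 0.242 at 24 h and 0.211 at 48 h, and 0%, 0.021% and 0.21% of all genes were called lower in this test at those hours. At an unadjusted p under 0.05, 6, 5 and 4 of the 8 subunits differed at 8, 24 and 48 h (518, 1245 and 1260 of all genes), and voom called 0 as well. By the tag and in the libraries with agreeing labels, all 8 differences were also below 0 at each hour and none was called (lowest adjusted p = 0.902 at 48 h by the tag and 0.137 at 8 h with agreeing labels). The widest differences at 8 h were those of cct-2 (−0.90, 95% interval −1.28 to −0.52) and cct-3 (−0.79, −1.12 to −0.45). The narrowest was that of cct-1 (−0.17, −0.45 to 0.12). Without glp-1 auxin replicate 3, cct-2 (−1.02, adjusted p = 0.0158) and cct-3 (−0.87, adjusted p = 0.0269) passed at 8 h. At 24 h the widest was cct-5 (−0.75, −1.14 to −0.36) and at 48 h cct-2 (−0.63, −1.03 to −0.23).

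The change within a strain did not differ between hours beyond the test either. Against the change at 8 h, 0 of 8 subunits passed at 24 h or at 48 h in glp-1 (0.042% and 0.701% of all genes were called lower) or in fem-3 (0% and 0.189%), in limma, with voom, by the tag or with agreeing labels. At an unadjusted p under 0.05 (1422 and 1837 of all genes in glp-1, 508 and 961 in fem-3), 1 subunit differed, cct-5 in glp-1 at 24 h (−0.46, 95% interval −0.85 to −0.06, adjusted p = 0.463). In glp-1 cct-2 differed by 0.35 at 24 h (interval −0.03 to 0.73), and its 48 h change differed from its 8 h change by −0.06 (interval −0.47 to 0.34).

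**Figure D3:**
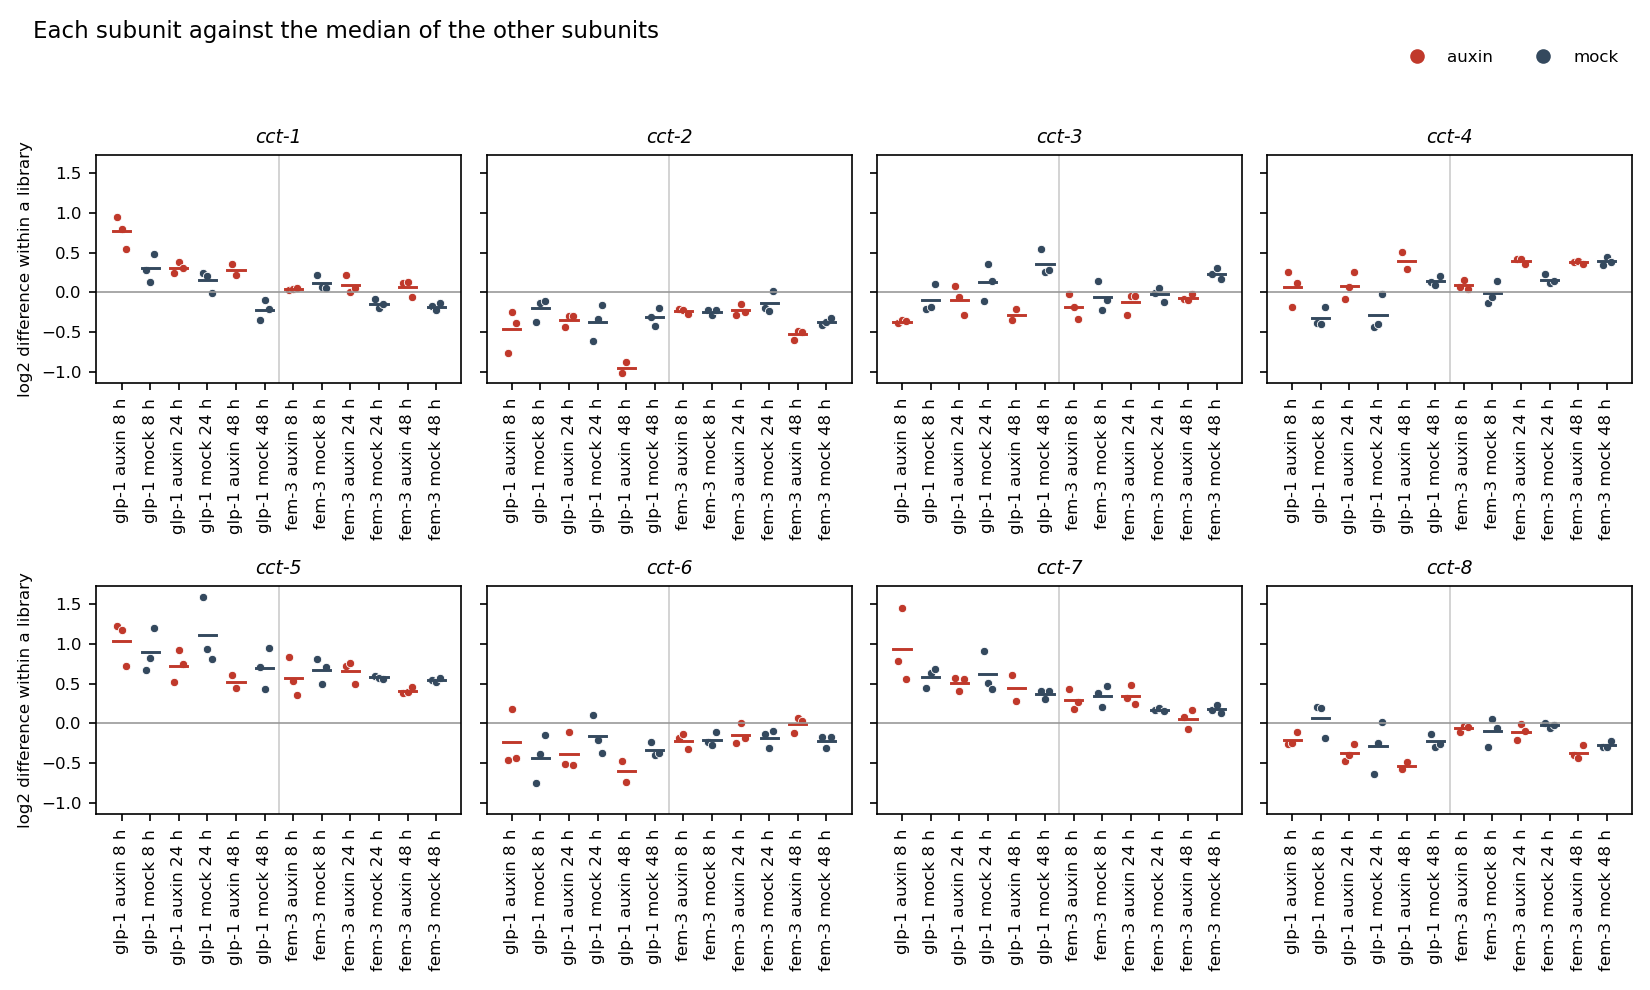
Log2 level of each subunit minus the median of the other 7 subunits in the same library, for glp-1 and fem-3 by hour, with auxin left of mock. Points are libraries and bars are group means. A value of 0 means that the subunit sat at the middle of the complex's mRNAs, and in glp-1 at 48 h cct-1 averaged 0.28 on auxin and −0.22 in mock and cct-3 −0.28 on auxin and 0.36 in mock.

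Subunits were next set against each other within a library, as the log2 CPM of one subunit minus the median of the other 7. This removes whatever the 8 genes share, and the values are a description with no test and no share over all genes. Some subunits must be higher when others are lower. As all 8 fell in glp-1 and fem-3 at each hour, relatively higher here means a smaller fall, not a rise. With 2 auxin libraries, as in glp-1 at 48 h, groups separate more easily than with 3. In glp-1 at 8 h cct-1 was 0.77 ± 0.21 above the other subunits on auxin and 0.30 ± 0.17 above them in mock (SD, n = 3 each), and cct-4 stood at 0.06 ± 0.22 on auxin and −0.33 ± 0.12 in mock. Both were higher within every auxin library than within any mock library. The opposite held for cct-3, at −0.37 ± 0.02 on auxin and −0.09 ± 0.18 in mock. At 24 h no subunit was separated this way. At 48 h cct-1 and cct-4 were again higher in each auxin library of glp-1, and cct-2, cct-3, cct-6 and cct-8 were lower, cct-2 at −0.95 ± 0.09 on auxin (n = 2) and −0.32 ± 0.11 in mock (n = 3). In fem-3 at 48 h cct-1 and cct-6 were relatively higher on auxin and cct-2, cct-3 and cct-5 relatively lower, with cct-3 at −0.07 ± 0.04 on auxin and 0.24 ± 0.07 in mock (n = 3 each). At 24 h in fem-3 cct-1, cct-4 and cct-7 were relatively higher. In fem-3 at 8 h the only subunit whose groups did not overlap was cct-1, which was relatively lower on auxin, at 0.04 ± 0.01 and 0.11 ± 0.09 in mock.

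**Figure D4:**
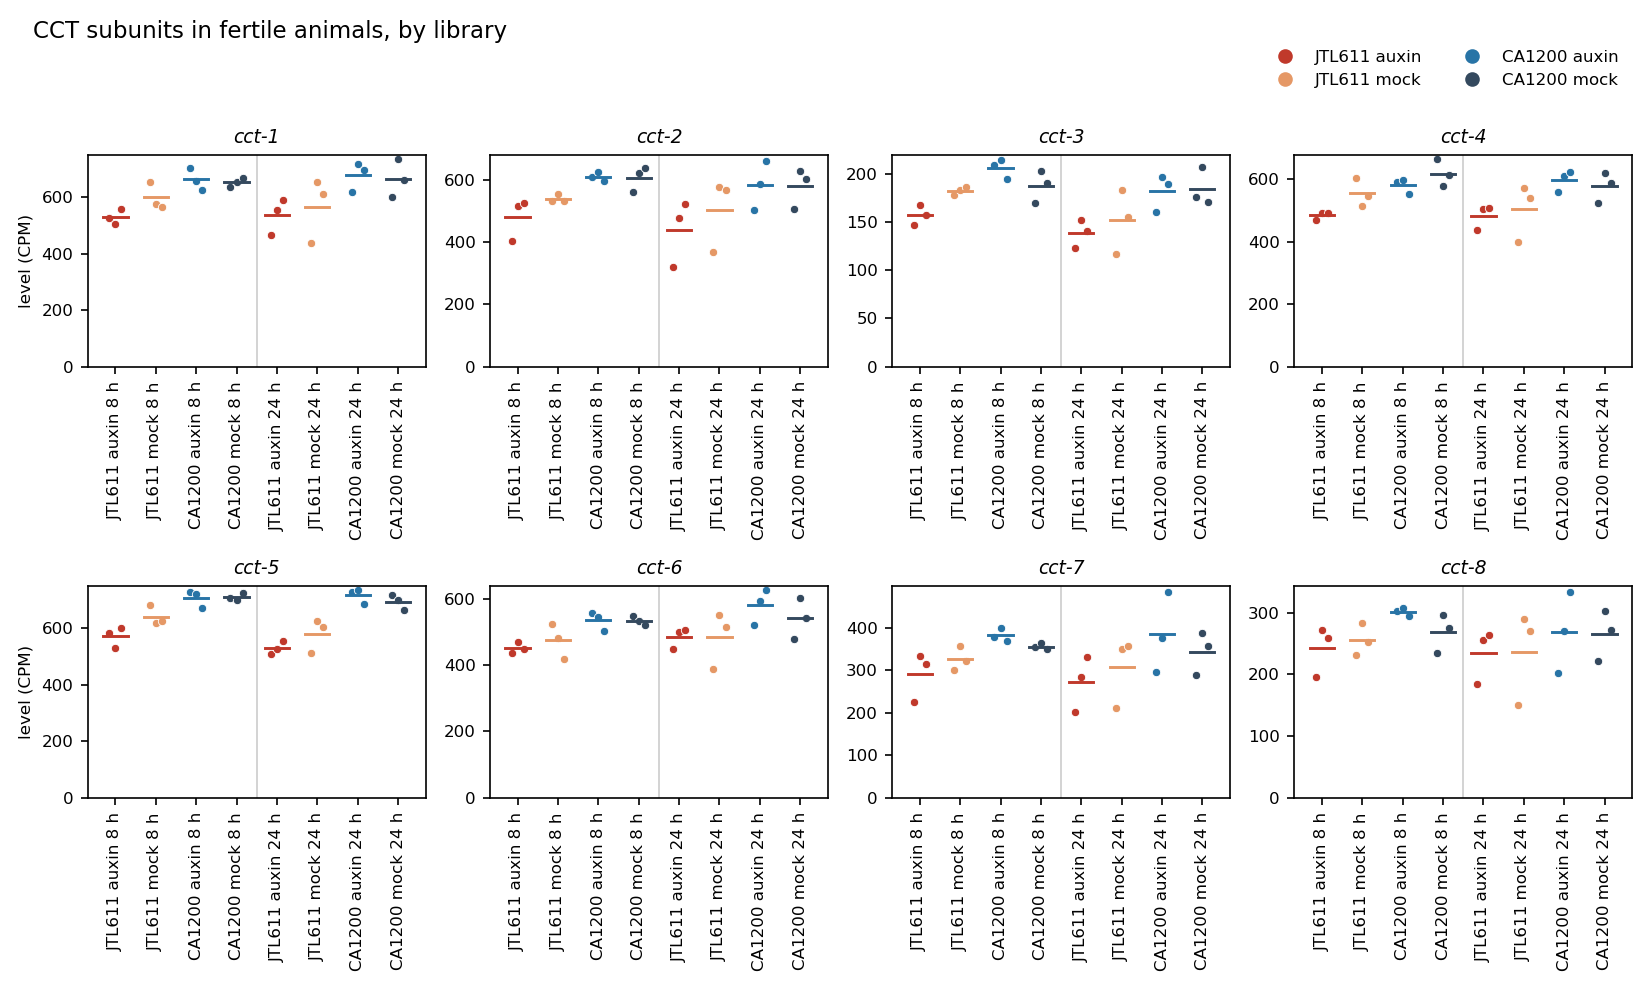
CPM of each CCT subunit (1 panel each) in JTL611 and CA1200 at 8 and 24 h, with auxin left of mock. Points are libraries and bars are group means. At 8 h the 3 auxin libraries of JTL611 lie below the 3 auxin libraries of CA1200 in all 8 panels.

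In the wild-type background, JTL611 on auxin was compared with CA1200 on auxin, which carries TIR1 without the tag. At 8 h all 8 subunits were lower in each JTL611 library than in any CA1200 library, where 5.86% of all genes were lower without overlap. The 8 subunits summed to 3208 ± 194 CPM in the JTL611 libraries, against 3986 ± 154 CPM in those of CA1200 (SD, n = 3 each). The log2 fold changes ran from −0.42 in cct-7 to −0.24 in cct-6, with a median of −0.33 where all genes had 0.00. None passed in limma (lowest adjusted p = 0.508), where 0% of all genes were called lower, while 8 of 8 subunits and 259 of 10739 genes had an unadjusted p under 0.05, and voom called 0 subunits. As examples, cct-3 had 147, 168 and 158 CPM in JTL611, against 210, 215 and 194 CPM in CA1200 (−0.39, 95% interval −0.58 to −0.20). The values of cct-1 were 525, 505 and 558 CPM in JTL611, against 703, 659 and 627 CPM in CA1200 (−0.33, −0.52 to −0.13). In cct-7 they were 226, 333 and 314 CPM in JTL611, against 379, 401 and 369 CPM in CA1200 (−0.42, −0.70 to −0.13). Without JTL611 replicate 1, cct-7 was at −0.24, cct-2 at −0.23 and cct-8 at −0.19, each moved by over 1.5 times. Of the 11 sperm genes, the 10 listed at this hour summed to 71.2 to 98.7 CPM in JTL611 and 63.4 to 69.5 CPM in CA1200, higher without overlap, and their part was not tested.

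At 24 h the same comparison gave changes from −0.50 in cct-7 to −0.18 in cct-8, with a median of −0.37 where all genes had 0.01. The sum was 3117 ± 381 CPM in JTL611 on auxin and 3992 ± 366 CPM in CA1200 on auxin (SD, n = 3 each). The groups did not overlap for 5 of 8 subunits (cct-1, cct-3, cct-4, cct-5 and cct-6), where 3.43% of all genes were lower without overlap. None passed in limma (0% of all genes), 2 of 8 subunits had an unadjusted p under 0.05 (324 of 10245 genes) and voom called none. The clearest gap was that of cct-5, with 507, 524 and 552 CPM in JTL611, against 727, 735 and 684 CPM in CA1200 (−0.44, 95% interval −0.70 to −0.18). The spread within groups was wider than at 8 h, as in cct-2, with 319, 476 and 521 CPM in JTL611, against 503, 588 and 662 CPM in CA1200. Leaving out 1 library moved 3 of the changes by over 1.5 times. Without JTL611 replicate 1, cct-2 was at −0.22, cct-7 at −0.30 and cct-8 at −0.020. Without CA1200 replicate 3, cct-7 was at −0.33 and cct-8 at −0.014, and cct-8 was at −0.38 without CA1200 replicate 1 and at −0.28 without JTL611 replicate 3. In all 4 groups at 24 h replicate 1 had the lowest sum of the 8 subunits, and it also had the lowest summed level of 9 oocyte and embryo genes, 7017 CPM beside 13927 and 18512 CPM in JTL611 on auxin and 10924 CPM beside 15310 and 21739 CPM in CA1200 on auxin. The part of this in the spread was not tested. These libraries, like those at 8 h, met the criterion for pairing by replicate number, and the values given are from the fit without it. With the replicate number as a block, no subunit was called at either hour.

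Against its own mock, JTL611 on auxin gave smaller values, and this comparison shares the JTL611 auxin libraries with the one before. The sum was 3208 ± 194 CPM on auxin and 3575 ± 128 CPM in mock at 8 h, and 3117 ± 381 CPM on auxin and 3337 ± 660 CPM in mock at 24 h. At 8 h 5 of 8 subunits were lower without overlap (2.51% of all genes), with a median of −0.18, and at 24 h 0 of 8 were (4.66% of all genes), with a median of −0.09. Neither hour had a call in limma (0% of all genes called lower at both), with 1 and 0 of 8 subunits at an unadjusted p under 0.05 (200 and 472 of all genes), and voom called 0. In CA1200, auxin against mock gave changes between −0.09 and 0.17 at 8 h and between −0.02 and 0.15 at 24 h. There 0 of 8 subunits were called in limma or by voom and 0 were lower without overlap at either hour, beside 0% and 0% of all genes called lower and 7.69% and 1.54% lower without overlap, and 0 of 8 subunits had an unadjusted p under 0.05 (422 and 144 of all genes). The tag without auxin, JTL611 mock against CA1200 mock, gave changes below 0 for all 8 subunits, with medians of −0.14 at 8 h and −0.22 at 24 h. None was called in limma or by voom (0% of all genes at both hours), 0 and 1 of 8 had an unadjusted p under 0.05 (145 and 78 of all genes), and 2 and 1 of 8 were lower without overlap, beside 2.8% and 1.17% of all genes.

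Without auxin, the sterile strains themselves differed. In mock, all 8 subunits were called lower in glp-1 than in fem-3 at 8, 24 and 48 h, beside 36.9%, 41.9% and 40.8% of all genes, and without overlap beside 42.3%, 43.9% and 45.4%, so a lower level in glp-1 was common among all genes. The medians over the 8 were −0.99, −1.17 and −0.71, where all genes had 0.02, −0.36 and −0.25, but when each library was centred on its own median gene, which moved all genes by 0.80, 0.995 and 0.95, only 3 of 8 were called lower at 8 h and at 24 h, and at 48 h 3 were called higher, cct-3 (0.35), cct-5 (0.37) and cct-7 (0.41). With that centring all 8 changes stayed below 0 at 8 h, cct-5 and cct-7 lay above 0 at 24 h, and all but cct-4 lay above 0 at 48 h. The direction between the strains thus depends on the scaling for these subunits at 24 and 48 h, and the size does at each hour. In the libraries with agreeing labels 6 of 8 were called lower at 8 h, without cct-7 and cct-8, 6 at 24 h, without cct-5 and cct-7, and 4 at 48 h, and by the tag 8, 8 and 4. The subunit farthest below fem-3 was cct-4, the one subunit that stayed below 0 at all 3 hours with that centring, with 54.8, 48.5 and 46.2 CPM in glp-1, against 112, 130 and 139 CPM in fem-3 at 8 h (−1.35, SE 0.11, adjusted p = 1.37e-11 in limma). The closest at 48 h was cct-7, with 94.9, 105 and 90.6 CPM in glp-1, against 139, 144 and 138 CPM in fem-3 (−0.54, SE 0.16, adjusted p = 0.00385). The germ cell and sperm genes given above differ between the strains in the same direction, and their part was not tested.

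Across the mock time course, 3 subunits rose in glp-1 and 1 in fem-3 between 8 and 48 h. In glp-1 at 48 h against 8 h, 3 of 8 were called higher, beside 10.1% of all genes: cct-3 with 105, 101 and 83.1 CPM at 48 h, against 62.0, 56.4 and 52.8 CPM at 8 h (0.75, SE 0.11, adjusted p = 9.51e-06 in limma), cct-4 (0.73, adjusted p = 1e-05) and cct-6 (0.50, adjusted p = 0.00354). With agreeing labels 2 of these were called, without cct-6 (adjusted p = 0.171), and by the tag 1, cct-4. The other 5 had changes between 0.03 in cct-1 and 0.29 in cct-2. In fem-3 1 of 8 was called higher at 48 h, beside 8.14% of all genes: cct-4 with 156, 167 and 163 CPM at 48 h, against 112, 130 and 139 CPM at 8 h (0.36, SE 0.11, adjusted p = 0.0230). Its call was lost without mock replicate 1 at 8 h (adjusted p = 0.161), without mock replicate 2 or 3 at 48 h (0.0799 and 0.0617) and with centring on the median gene (0.0652). At 24 h against 8 h 0 of 8 passed in limma in either strain, beside 5.05% of all genes called higher in glp-1 and 2.93% in fem-3. At an unadjusted p under 0.05 there were 0 of 8 in glp-1 (4048 of all genes) and 1 of 8 in fem-3 (3294 of all genes), where voom called 1. Without glp-1 mock replicate 3 at 8 h, cct-8 was called lower at 24 h than at 8 h (−0.47, adjusted p = 0.0472 in limma).

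The subunits tracked each other over the libraries, given here as a description. Over the 35 sterile libraries, which differ in strain, hour and treatment, Pearson's r of the log2 levels for the 28 pairs of subunits ran from 0.863 (cct-4 with cct-5) to 0.982 (cct-2 with cct-8), with a median of 0.940, and Spearman's rho from 0.824 to 0.983. Each subunit had an r of 0.944 (cct-5) to 0.983 (cct-6) with the mean of the other 7. Most of this lay between groups: with the group means removed, r ran from −0.471 (cct-5 with cct-8) to 0.805 (cct-4 with cct-8), with a median of 0.321. In JTL611 and CA1200 the median r after removal of the group means was 0.169 at 8 h and 0.915 at 24 h, over 12 libraries each.

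The 5 genes outside the complex whose log2 level was most like the mean of the 8 subunits over the same 35 libraries, among 12339 genes with a mean of at least 2 CPM, were sti-1 (r = 0.972), dnj-12 (0.962), W03F9.1 (0.960), fkb-6 (0.959) and hip-1 (0.949), and 96 genes had an r of at least 0.9. The gene sti-1 encodes an HSP-90 co-chaperone, dnj-12 a J-domain protein, fkb-6 a peptidyl-prolyl isomerase of the FK506-binding family and hip-1 an HSP70-interacting protein. With the group means removed, r was 0.308 for sti-1, 0.60 for dnj-12, 0.529 for W03F9.1, 0.426 for fkb-6 and 0.639 for hip-1. In glp-1, sti-1 (−1.002, −1.40 and −1.39 at 8, 24 and 48 h), dnj-12 (−0.60, −0.68 and −0.55) and fkb-6 (−0.73, −0.82 and −1.12) were called lower on auxin at each hour in limma. In fem-3 sti-1 and fkb-6 were called lower at 24 and 48 h, and W03F9.1 and hip-1 were called in no depletion comparison.

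The comparison chaperones place the size of the CCT changes. The study lists hsp-90, hsp-1 and hsp-60 as direct HSF-1 targets, by a promoter peak and a fall in these glp-1 libraries. It lists sti-1, fkb-6 and W03F9.1 in the same way. Their direction here is thus not independent evidence, and hsp-60 and W03F9.1 were not called in glp-1 in the test used here. The cytosolic hsp-90 had 98.6, 155 and 85.2 CPM on auxin in glp-1 at 8 h, against 550, 480 and 469 CPM in mock, which is 22.0% of mock (−2.19, SE 0.16, adjusted p = 1.95e-09 in limma). The constitutive cytosolic HSP70 gene hsp-1 was at 33.8% of mock (−1.56, SE 0.13, adjusted p = 1.96e-08). Both were called lower in glp-1 and in fem-3 at all 3 hours, with no overlap. The widest CCT change in glp-1 at 8 h was −1.07. At 24 h it was −1.15, beside −1.86 in hsp-90 and −1.47 in hsp-1. At 48 h in glp-1 hsp-90 was at −0.88 and hsp-1 at −1.13, and the widest CCT change, that of cct-2, was also −1.13. The gap between auxin and mock in hsp-90 also held in replicates whose tag disagrees with the title: in fem-3 replicates 2 and 3 at 8 h hsp-90 had 1095 and 1207 CPM in the libraries titled auxin, against 2337 and 2561 CPM in those titled mock. By the tag, hsp-90 was at −0.55, −0.66 and −0.12 in glp-1 and at 0.42, 0.43 and 0.37 in fem-3 at 8, 24 and 48 h, with neither hsp-90 nor hsp-1 called, and with agreeing labels hsp-90 was at −2.05, −1.88 and −0.83 in glp-1 and −0.92, −1.25 and −0.81 in fem-3, also without a call of either. The mitochondrial chaperonin gene hsp-60 was not called in glp-1, at −0.19, −0.58 and −0.41 at 8, 24 and 48 h (adjusted p = 0.923, 0.133 and 0.295 in limma). In fem-3 it was at 0.08 and −0.52 at 8 and 24 h and was called at 48 h only (−0.66, adjusted p = 0.0406). In JTL611 against CA1200 on auxin, hsp-90 had changes of −0.85 at 8 h and −0.79 at 24 h and hsp-1 of −0.73 and −0.60, and none was called.

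Genes that work beside CCT were counted in the same way. Of the 6 prefoldin genes, pfd-1 to pfd-6, 0 were called in limma in any depletion comparison of glp-1, fem-3 or JTL611, and in glp-1 their median was 0.10, −0.41 and −0.23 at 8, 24 and 48 h, with 2, 1 and 1 of 6 at an unadjusted p under 0.05, beside 1063, 2276 and 2379 of all 14269 genes. In fem-3 that count was 0, 1 and 0 of 6, beside 575, 938 and 1568 of all genes, and in JTL611 it was 0. Of 23 genes of actins, tubulins and G protein beta subunits, which are folded by CCT, 21 were tested in the sterile strains and 0 were called lower after depletion in limma, with 6, 1 and 8 of 21 at an unadjusted p under 0.05 in either direction in glp-1 at 8, 24 and 48 h and 1, 0 and 6 of 21 in fem-3, where the counts over all genes are those just given and 0.126% to 1.94% of all genes were called lower. Near-identical actin and tubulin copies can share reads, so single values are less certain than those of the subunits. At 48 h 3 tubulin genes were called higher in glp-1, beside 2.92% of all genes, and 2 of them in fem-3, beside 0.897%. The alpha tubulin gene tba-7 had 168 and 160 CPM on auxin in glp-1, against 61.7, 66.4 and 62.6 CPM in mock (1.37, SE 0.16, adjusted p = 1.99e-06), and the beta tubulin gene tbb-6 had 112 and 112 CPM, against 47.6, 45.3 and 51.9 CPM (1.21, SE 0.16, adjusted p = 1.19e-05). The third was tbb-2, at 0.75 (adjusted p = 0.0391). In fem-3 tba-7 (1.06, adjusted p = 2.95e-05) and tbb-6 (1.10, adjusted p = 2.04e-05) were called, with no overlap between auxin and mock. By the tag no prefoldin or client gene was called after depletion, and with agreeing labels only tba-7 was, in glp-1 at 48 h (1.39, adjusted p = 0.0437).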

How the data were processed

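RNA-seq of 59 whole-animal libraries was used. Per the labels and the methods of the study, the authors aligned paired reads with STAR to WBcel235 and counted them per gene with featureCounts, whose strand setting is not given in the sources used here. The authors deposited log2 CPM from edgeR with a prior, in 3 tables normalized separately. The 24 h table also holds a column of the authors' own comparison, which was not used. The log and the prior (0.114, 0.110 and 0.124 CPM at 8 h, 24 h and in the sterile strains) were undone, and 100% of values then lay within 0.1 read of a whole number of reads; floors of 3 reads cover counting error only.

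Tests were run on the deposited log2 values with limma 3.58.1 in R 4.3.3, one fit per table over all its groups, with Benjamini-Hochberg adjustment over all genes above 1 CPM in at least 25% of libraries (10739 of 10763, 10245 of 10307 and 14269 of 15364). Calls required an adjusted p below 0.05 and at least 2 CPM on average. Fold changes are on the scale of log2 CPM with that prior and understate the change of low genes. CPM are levels with the prior removed. The test was tested on simulated data with a log2 change of 2. That is wider than any change of a subunit given here, so the simulation does not show how often changes of these sizes are called. Tables and figures were made with Python 3.11.15, numpy 2.4.6, pandas 2.3.3 and matplotlib 3.10.9, and coordinates are from Ensembl release 115. All 8 subunits are named, with hsf-1, hsp-90, hsp-1 and hsp-60, the called client genes and the 5 genes most like the subunits' mean. The members and lists were chosen with earlier results of these data known.

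Replicate numbers were taken to pair libraries where the deviations of all 3 pairs correlated above 0.1. This held for fem-3 at 24 h (0.124 to 0.231), for JTL611 against CA1200 on auxin at 8 h (0.108 to 0.446) and at 24 h (0.207 to 0.643), and for the other comparisons of JTL611 and CA1200 at 24 h (0.218 to 0.806). Alternatives were other pseudocounts, no filter, centring on the median gene, the replicate block, a fit of the compared groups alone, precision weights on the recovered reads (voom), groups by agent tag, libraries with agreeing labels, no limit on mean level, and leaving out each library.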

Additional observations from a re-analysis of the deposited data

How the results depend on the processing

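Groups by the agent tag, and the libraries with agreeing labels, each gave 0 called subunits in all 6 sterile comparisons of auxin with mock. Likeness, within-library and marker values were given with groups from the titles only. Both gave 4 between the strains at 48 h and 0 in fem-3 mock at 48 h against 8 h, and the tag gave 1 in glp-1 mock at 48 h against 8 h. By the tag, the changes of cct-1 to cct-8 in fem-3 were 0.013, 0.041, 0.10, 0.076, 0.19, 0.085, 0.16 and 0.11 at 8 h, 0.11, 0.23, 0.11, 0.018, 0.13, 0.090, 0.056 and 0.14 at 24 h, and 0.13, 0.21, 0.20, 0.15, 0.14, 0.031, 0.15 and 0.20 at 48 h, and that of cct-5 in glp-1 at 48 h was 0.032. The compared groups alone gave 0, 0 and 1 in glp-1, 3 and 6 in fem-3 at 24 and 48 h and 2 in fem-3 mock at 48 h against 8 h. In fem-3 at 24 h a pseudocount of 1 CPM gave 2, no filter 0, the replicate block 2 and voom 3, and voom gave 1 in fem-3 mock at 24 h against 8 h. The block changed no other call. Centring on the median gene gave 3, 3 and 3 between the strains, 0 in fem-3 mock at 48 h against 8 h, and changes above 0 between the strains in cct-5 (0.24) and cct-7 (0.15) at 24 h and in cct-1 (0.15), cct-2 (0.24), cct-3 (0.35), cct-5 (0.37), cct-6 (0.066), cct-7 (0.41) and cct-8 (0.23) at 48 h. The cause was not tested.

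Leaving out 1 library gave 4 to 6, 7 to 8 and 4 to 5 called subunits in glp-1 at 8, 24 and 48 h, 0 to 0 in fem-3 at 24 h, 0 to 1 at 48 h, 0 to 2 for the difference between strains at 8 h, 0 to 1 in glp-1 mock at 24 h against 8 h and 0 to 1 in fem-3 mock at 48 h against 8 h. No called change after depletion moved by over 1.5 times. Of those not called, cct-7 did in glp-1 at 8 h and cct-1 at 48 h. In fem-3, 3 did at 8 h, and cct-1 at 48 h (−0.20 to −0.064). In JTL611, 3 did against CA1200 at 8 h and 3 at 24 h, and 5 and 8 against its mock at 8 and 24 h. Changes that crossed 0 were those of JTL611 on auxin against its mock: at 8 h cct-6 (−0.15 to 0.0057) and cct-8 (−0.18 to 0.056), and at 24 h cct-1 (−0.24 to 0.045), cct-2 (−0.41 to 0.011), cct-3 (−0.29 to 0.033), cct-4 (−0.21 to 0.058), cct-6 (−0.14 to 0.11), cct-7 (−0.41 to 0.042) and cct-8 (−0.27 to 0.20).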
